A study of Mus musculus with 4 samples.

Results

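Chemokine ligands are small secreted proteins that attract cells carrying the matching receptor. The family described here was taken by name: every protein-coding gene whose GENCODE symbol starts with Ccl, Cxcl, Xcl or Cx3cl followed by a digit. This rule found 37 genes among the 50600 genes listed and the 21764 protein-coding genes. By symbol, 23 were CC, 12 CXC, 1 C (Xcl1) and 1 CX3C (Cx3cl1), subfamilies that are named for the spacing of the first cysteines. A further 3 genes matched by symbol but were not annotated as protein-coding (Cxcl11, Ccl19-ps1 and Ccl19-ps3) and were left out. The libraries came from mouse T helper 17 (Th17) cells, the CD4 T cells that make interleukin-17, obtained as primary cells of strain C57BL/6NJ and differentiated in culture. All 4 libraries formed 1 group of biological replicates at 72 hours, the time given in the file headers, with no treatment, genotype or control group in the labels. Sex, age and stage were not recorded. The labels gave 4 biosamples under 1 donor identifier and did not say whether these were separate animals, so p-values measure only the spread between these samples, which may be technical.

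Most chemokines bind G protein-coupled receptors on leukocytes, and a gradient of ligand then directs the movement of the cell. Inflammatory chemokines are switched on in activated immune and tissue cells, whereas homeostatic ones are made mainly by stromal cells of lymphoid organs and by epithelia. Th17 cells are known for carrying the receptor CCR6 and for making its ligand CCL20, and for drawing in neutrophils.

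Total counts per library were 33123029 to 37746767, and 19572 to 20355 genes had at least 1 count. Replicate 2 stood apart from the others before any gene was considered: a chi-square per degree of freedom of 48.8 to 54.1 separated it from the other 3 libraries, against 4.64 to 7.05 among those 3. The 7 Th17 identity genes were all above 1 TPM (transcript abundance, that is counts scaled by gene length and depth), led by Il17f, Il17a and Il22, and their summed level was 1434 TPM in replicate 2 and 5456 to 6218 TPM in the others. The summed level of 9 pan T cell genes, led by Trac, Trbc2 and Lck, was 3551 TPM in replicate 2 and 3771 to 3936 TPM in the others. Ligand levels are therefore given for each library, so that replicate 2 can be read apart from the others.

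A minority of the ligand family, 16 of 37 genes, lay above 1 TPM in Th17 cells, and nearly all of the summed ligand TPM came from 4 CC genes. Ccl3, Ccl4, Ccl22 and Ccl5 took the first 4 ranks, in that order, in each of the 4 libraries. Ccl3 alone made up 66.4 to 71.2% of the summed ligand TPM in replicates 1, 3 and 4 and 69.6% in replicate 2. Counts summed to at least 10 for 20 of the ligand genes. Of these, 16 lay above 1 TPM, 2 lay below (Ccl28 and Cxcl9) and 2 were called in neither direction (Cx3cl1 and Cxcl13), by edgeR's quasi-likelihood test at a Benjamini-Hochberg adjusted p under 0.05. Above 1 TPM were 70.7% of the 17337 genes tested, and 49.8% of all protein-coding genes listed, so neither 16 of 20 nor 16 of 37 stood far from the share over all genes. No counts in any library were found for 14 of the 37 genes, against 27.6% of protein-coding genes. Because RNA was taken from the bulk culture, a few cells with much of a transcript and many cells with little cannot be told apart.

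**Figure D1:**
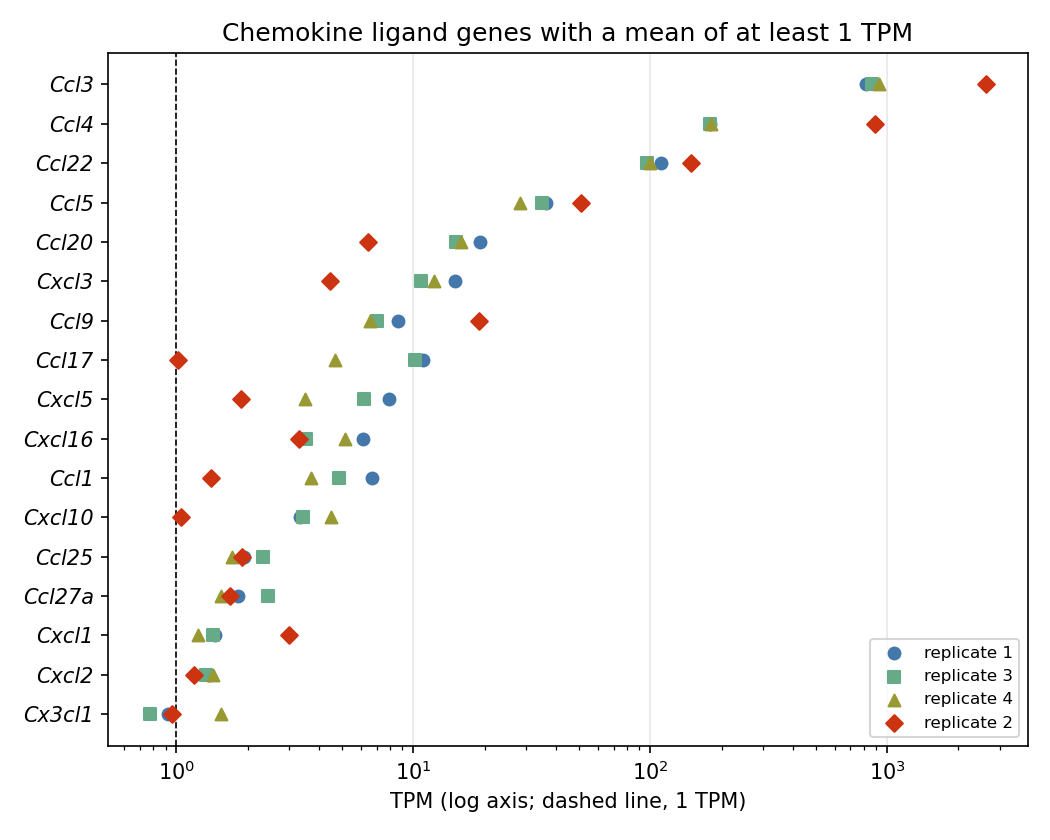
Level of the 17 ligand genes with a mean of at least 1 TPM in each library, in TPM on a log axis, with 1 symbol per replicate and the dashed line at 1 TPM. Ccl3 is first in every library at 816 to 2607 TPM, and replicate 2 lies to the right of the others for Ccl3, Ccl4, Ccl5, Ccl9, Ccl22 and Cxcl1 and to the left for Ccl20, Cxcl3, Ccl17, Cxcl5, Ccl1 and Cxcl10.

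Ccl3 and Ccl4 stood highest. Both belong to the macrophage inflammatory protein 1 (MIP-1) group, whose genes encode attractants of monocytes and effector T cells. Ccl3 (ENSMUSG00000000982.5, chr11:83647844-83649355 on mm10, minus strand), which encodes MIP-1 alpha, had 816, 2607, 862 and 926 TPM in replicates 1 to 4. Ccl4 (chr11:83662584-83664683, plus strand), which encodes MIP-1 beta, had 178, 889, 178 and 181 TPM. Replicate 2 was the highest library for both genes and lay outside the range of the others, which for Ccl4 had a coefficient of variation of 0.923%. Over replicates 1, 3 and 4 the mean was 868 ± 55.2 TPM for Ccl3 and 179 ± 1.65 TPM for Ccl4 (SD, n = 3). Over all 4 libraries the mean level of Ccl3 was 3.65 times that of Ccl4.

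Ccl5 (chr11:83525778-83530518), which encodes RANTES, had 36.5, 50.9, 34.8 and 28.3 TPM in replicates 1 to 4. Ccl9 (chr11:83572919-83578636), which encodes a mouse ligand of CCR1, had 8.59, 19.0, 7.0 and 6.57 TPM. Both genes were again highest in replicate 2 without overlap. The fifth gene of this group, Ccl6, had 0 counts in every library, which allows up to 0.169 TPM at the floor of 3 counts, although its start site lies 14.5 kb from that of Ccl9 and 56.3 kb from that of Ccl3.

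The ligands of CCR4, a receptor of Th2, regulatory and skin-homing T cells, were both present but far apart in level. Ccl22 (chr8:94745590-94751699), which encodes macrophage-derived chemokine, had 111, 149, 96.6 and 99.7 TPM in replicates 1 to 4. Ccl17 (chr8:94810453-94812036), which encodes TARC, had 11, 1.02, 10.2 and 4.69 TPM, resting on 56, 6, 55 and 27 counts. Replicate 2 was the highest library for Ccl22 and the lowest for Ccl17, with no overlap for either. The level of Ccl22 was 9.48 to 21.2 times that of Ccl17 in replicates 1, 3 and 4 and 146 times in replicate 2. The start sites of these genes lie 64.9 kb apart on the same strand, with Cx3cl1 between them.

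The bases upstream of both start sites are printed because these neighbours, which bind the same receptor, moved in opposite directions in replicate 2. They are from RefSeq, build GRCm38.p6, 250 bases ending at the base before the start site, for Ccl22 at chr8:94745434-94745683 and for Ccl17 at chr8:94810203-94810452, both on the plus strand. Capitals mark a loose form of the NF-kappa-B motif (3 G, any 5 bases and 2 C) in Ccl22, and GGAAA, the core of the NFAT motif, in Ccl17, on either strand.
Ccl22: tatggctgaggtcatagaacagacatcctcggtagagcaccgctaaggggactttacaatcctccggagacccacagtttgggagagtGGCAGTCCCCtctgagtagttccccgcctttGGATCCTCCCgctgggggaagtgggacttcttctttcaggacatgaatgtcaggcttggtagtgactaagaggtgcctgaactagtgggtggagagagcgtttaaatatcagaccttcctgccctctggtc
Ccl17: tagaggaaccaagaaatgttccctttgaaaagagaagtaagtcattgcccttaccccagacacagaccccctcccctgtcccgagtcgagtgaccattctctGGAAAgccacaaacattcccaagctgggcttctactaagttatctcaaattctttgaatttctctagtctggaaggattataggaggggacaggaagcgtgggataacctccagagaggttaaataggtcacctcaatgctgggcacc
The windows of Ccl22 (250 bases before to 50 after the start) held no GGAAA and those of Ccl17 no loose NF-kappa-B motif. Among all 32851 promoter windows of the table, 50.8% held the loose NF-kappa-B motif and 61.3% held GGAAA, so each motif is common, and a match is only a description of these letters.

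The single ligand of CCR6, Ccl20 (chr1:83116766-83119167), had 19.2, 6.45, 15.2 and 15.9 TPM in replicates 1 to 4. Ccl1, a ligand of CCR8, had 6.69, 1.4, 4.86 and 3.69 TPM. The deposited exons of Ccl1 span chr11:82176657-82305690 and hold 2369 bases, of which 613 belong to its protein-coding transcripts (chr11:82176657-82179812, GENCODE vM21). Part of its counts may thus come from the longer non-coding transcript. Its TPM was scaled to all 2369 bases, which gives too low a value for reads from the coding transcripts. The level of Ccl1 and its rank are therefore uncertain in both directions. Replicate 2 was the lowest library for both Ccl20 and Ccl1 and did not overlap with the others. Over replicates 1, 3 and 4 Ccl20 had a mean of 16.8 ± 2.12 TPM and Ccl1 of 5.08 ± 1.51 TPM (SD, n = 3).

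The CXC ligands that carry the ELR motif bind CXCR2 and attract neutrophils, and 4 of the 5 were above 1 TPM. Cxcl3 (chr5:90786103-90789600) had 15.1, 4.47, 10.8 and 12.2 TPM in replicates 1 to 4. Cxcl5 (chr5:90759360-90761624) had 7.91, 1.88, 6.18 and 3.50 TPM. Both were lowest in replicate 2, outside the range of the others. Cxcl1 (chr5:90891241-90893115), which encodes KC, had 1.45, 2.98, 1.42 and 1.24 TPM from 27, 64, 28 and 26 counts. Cxcl2 (chr5:90903871-90905938), which encodes MIP-2, had 1.37, 1.18, 1.33 and 1.43 TPM. Cxcl1 was thus highest in replicate 2, while Cxcl2 spread least of the 4 over all libraries, with a coefficient of variation of 7.80%. Cxcl15, a gene known from lung epithelium, had 0 counts in every library. The calls of Cxcl1 and Cxcl2 above 1 TPM were weak: that of Cxcl1 was lost without replicate 2 (log2 level 0.44, edgeR adjusted p = 0.070), and that of Cxcl2 without any single replicate (log2 0.36 to 0.45) or with no filter on counts (adjusted p = 0.062).

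The order of these paralogs by level differed between the libraries. The summed level of the group was 18.4 to 25.8 TPM in replicates 1, 3 and 4 and 10.5 TPM in replicate 2. The level of Cxcl3 was 7.58 to 10.4 times that of Cxcl1 in replicates 1, 3 and 4, against 1.5 times in replicate 2. Cxcl5 was at 2.83 to 5.44 times the level of Cxcl1 in those 3 libraries and at 0.629 times in replicate 2.

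Bases upstream of the start are shown for Cxcl1, Cxcl2, Cxcl3 and Ccl20 because each holds a match to the same motif, and these genes did not all move the same way in replicate 2. Each run has 250 bases from RefSeq (GRCm38.p6), at chr5:90890995-90891244, chr5:90903649-90903898, chr5:90785851-90786100 and chr1:83116516-83116765 in that order, all on the plus strand. Capitals mark a stricter form of the NF-kappa-B motif (3 G, any 2 bases, 3 T and 2 C) on either strand.
Cxcl1: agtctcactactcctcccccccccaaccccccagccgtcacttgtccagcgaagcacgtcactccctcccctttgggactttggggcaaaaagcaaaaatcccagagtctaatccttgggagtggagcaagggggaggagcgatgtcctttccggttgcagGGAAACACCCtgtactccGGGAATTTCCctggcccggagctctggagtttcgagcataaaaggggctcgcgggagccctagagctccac
Cxcl2: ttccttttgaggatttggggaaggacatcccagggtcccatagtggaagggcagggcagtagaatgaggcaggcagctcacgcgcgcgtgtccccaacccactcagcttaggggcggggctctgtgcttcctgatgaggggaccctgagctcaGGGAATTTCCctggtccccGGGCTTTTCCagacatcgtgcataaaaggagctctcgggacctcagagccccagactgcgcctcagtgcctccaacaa
Cxcl3: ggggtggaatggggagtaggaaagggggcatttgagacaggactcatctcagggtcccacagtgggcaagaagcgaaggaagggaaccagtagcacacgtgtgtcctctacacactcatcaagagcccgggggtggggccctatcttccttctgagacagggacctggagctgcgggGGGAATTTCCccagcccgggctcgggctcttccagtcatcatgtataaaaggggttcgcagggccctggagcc
Ccl20: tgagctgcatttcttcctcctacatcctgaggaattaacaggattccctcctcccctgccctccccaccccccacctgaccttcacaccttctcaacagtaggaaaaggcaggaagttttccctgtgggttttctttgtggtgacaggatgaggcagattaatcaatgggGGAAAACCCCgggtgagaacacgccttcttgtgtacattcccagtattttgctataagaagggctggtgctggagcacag
Of the 37 ligand genes, 27 matched the promoter table, and Ccl2, Ccl4, Ccl5, Ccl7, Ccl11, Ccl24, Ccl26, Cxcl5, Cxcl16 and Cxcl17 did not. A gene with several windows was counted if any of them held the motif. The stricter motif, chosen after the values were seen, stood in the windows of 5 of the 27 (Ccl9, Ccl20, Cxcl1, Cxcl2 and Cxcl3) and in 1.63% of all windows. Cxcl1, Cxcl2 and Cxcl3 each held the same letters GGGAATTTCC, beginning 71, 97 and 73 bases upstream of the start. Of these 5 genes, Ccl9 and Cxcl1 were higher in replicate 2, Ccl20 and Cxcl3 lower, and Cxcl2 had no call. The loose NF-kappa-B motif, which covers the stricter one, was found for 15 of the 27 genes and GGAAA for 19. TATAAA, the TATA motif, was found for 10 of the 27 and in 13.6% of all windows.

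Of the interferon-induced ligands of CXCR3, the receptor of Th1 and cytotoxic T cells, Cxcl10 (chr5:92346638-92348889), which encodes IP-10, had 3.32, 1.05, 3.42 and 4.48 TPM in replicates 1 to 4. Cxcl9, which encodes MIG, rested on 6, 0, 2 and 2 counts. These only just met the filter of 10 summed counts, so its level below 1 TPM was not tested without replicate 1, 3 or 4. Cxcl10 was lowest in replicate 2 without overlap, and the counts of Cxcl9 were too few to order the libraries. Cxcl16 (chr11:70453983-70459984), the transmembrane ligand of CXCR6, had 6.15, 3.30, 3.53 and 5.17 TPM. Its replicates 2 and 3 lay close together below the other pair. Cxcl13, the B cell attractant of the follicle, stood at 0.304 to 1.09 TPM.

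The ligands made chiefly by epithelia were low. Ccl25 (chr8:4325210-4360020), the CCR9 ligand of thymus and gut, had 1.94, 1.89, 2.33 and 1.72 TPM in replicates 1 to 4. Ccl27a (chr4:41769467-41774247), a CCR10 ligand of skin, had 1.83, 1.69, 2.44 and 1.54 TPM. Replicate 3 was highest for both, and replicate 2 lay inside the range of the others. Ccl28, a mucosal ligand of CCR10 and CCR3, had 2, 21, 3 and 1 counts, so that most of its counts came from replicate 2. The level of Ccl28 below 1 TPM was no longer called without replicate 1 or 3 (log2 level −2.32 and −2.36). Without replicate 2 its counts fell under the filter of 10 summed counts, so it was tested only because of that library. Exons of Ccl25 share 204 of their 7445 bases with Elavl1 on the opposite strand, which had 5466 to 6383 counts, and reads were assigned by strand.

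Cx3cl1, the membrane-bound fractalkine, had 0.925, 0.956, 0.775 and 1.55 TPM in replicates 1 to 4. Replicate 4 was its highest library. Xcl1, the lymphotactin of cytotoxic cells, had 4, 1, 0 and 4 counts and was not tested. Ccl7 had 2, 0, 1 and 3 counts and Cxcl14, which is made by epithelia and stroma, had 0, 3, 0 and 0. These 3 genes lay under the filter of 10 summed counts.

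Nearly the whole group that binds CCR2 and CCR3, which attracts monocytes and eosinophils, was at 0: Ccl2, Ccl8, Ccl11, Ccl12, Ccl24 and Ccl26 had no count in any library, and Ccl7 was the only member with any. The homeostatic ligands of CCR7 that guide cells into lymph nodes, Ccl19, Ccl21a and Ccl21b, were likewise at 0. The remaining genes at 0 were Ccl6, Ccl27b, Cxcl12, Cxcl15 and Cxcl17. A floor of 3 counts per library leaves room for 0.0320 to 1.07 TPM, from the long Cxcl12 to the short Ccl26. Near-identical copies (Ccl21a and Ccl21b, Ccl27a and Ccl27b, Ccl19 and its pseudogenes) are uncertain, since how multi-mapping reads were handled is not recorded. Pf4 and Ppbp, CXC chemokines of platelets whose symbols fall outside the name rule, had 1 count and 0 counts in all.

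Levels were steady among replicates 1, 3 and 4 and much less so once replicate 2 was included. For the 17 ligand genes with a mean of at least 1 TPM, the coefficient of variation over replicates 1, 3 and 4 had a median of 15.5%, from 0.923% for Ccl4 to 39.8% for Ccl17. Over all 4 libraries its median was 42.1%. The ranges over the libraries of neighbours in the order of mean level overlapped from Ccl20 (14.2 ± 5.44 TPM), Cxcl3 (10.6 ± 4.48 TPM) and Ccl9 (10.3 ± 5.88 TPM) downward. They also overlapped for Ccl3 and Ccl4, since Ccl4 in replicate 2 (889 TPM) exceeded Ccl3 in replicate 1 (816 TPM). Within each library Ccl3 stood above Ccl4, Ccl4 above Ccl22, Ccl22 above Ccl5, Ccl5 above Ccl20 and Ccl20 above Cxcl3. Cxcl3 stood above Ccl9 in replicates 1, 3 and 4 and below it in replicate 2.

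Each library was next compared with the other 3, to ask which ligand genes set it apart. Such a comparison has 1 library on one side, which is assumed to vary like the others, and it compares libraries and not conditions. In replicate 2, 13 of the 20 tested ligand genes were called, 7 higher and 6 lower, beside 21.1% of all 17337 genes tested (10.9% higher and 10.2% lower). The higher genes were Ccl3, Ccl4, Ccl5, Ccl9, Ccl22, Ccl28 and Cxcl1, and the lower genes were Ccl1, Ccl17, Ccl20, Cxcl3, Cxcl5 and Cxcl10. Ccl28 (2, 21, 3 and 1 counts in replicates 1 to 4) passed the count filter only through replicate 2. Its higher level there is therefore no support, although it is included wherever all tested ligand genes are counted. The comparison among genes with a mean of at least 1 TPM leaves it out. Among genes with a mean of at least 1 TPM, 12 of 17 ligand genes and 26.4% of all were called. With a change over 2-fold in addition, 11 ligand genes and 4.26% of all genes tested were called. The median absolute log2 change was 1.41 over the 20 ligand genes (1.35 with Cxcl9, which had no count in replicate 2, at its bound) and 0.24 over all genes. The median signed change was −0.15 over the ligand genes and −0.01 over all genes.

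**Figure D2:**
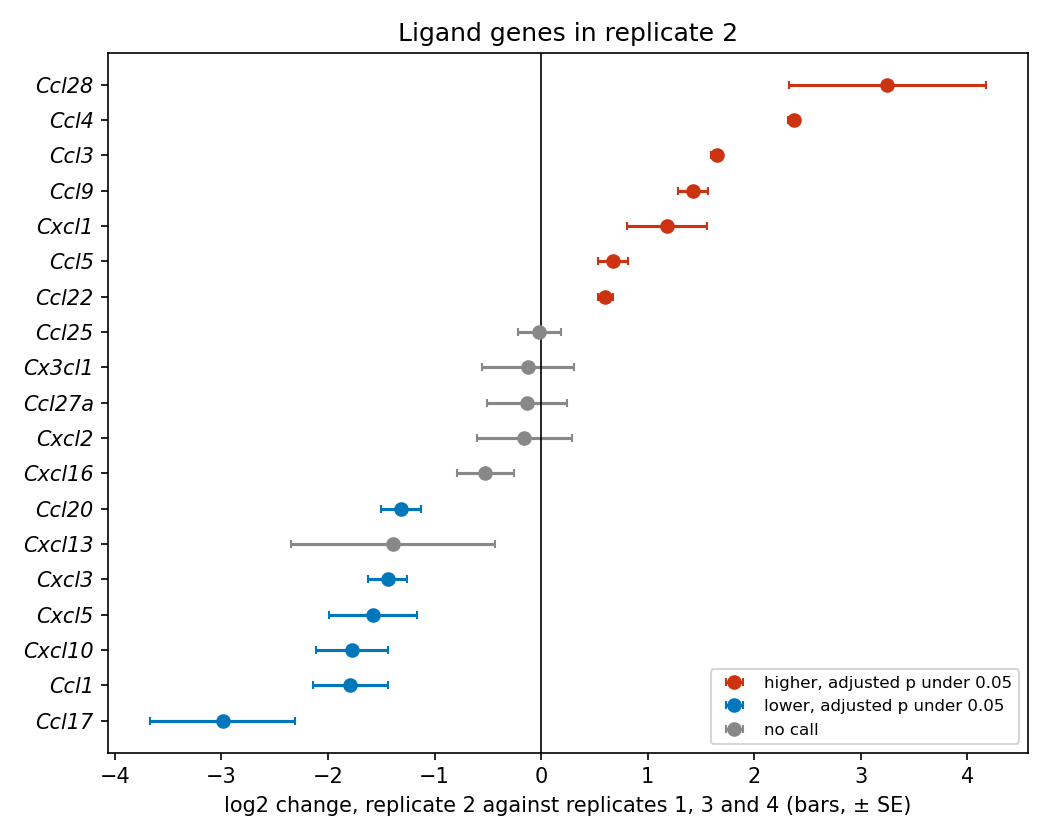
Log2 change of each tested ligand gene except Cxcl9 in replicate 2 against the other 3 libraries, with bars of 1 SE (edgeR). Ccl4 at 2.37 and Ccl3 at 1.65 have short bars, Ccl28 at 3.25 has a long one from few counts, and the lower genes run down to Ccl17 at −2.99.

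All 4 tested genes of the MIP-1 group rose in replicate 2. Ccl4 was 5.17-fold higher, a log2 change of 2.37 ± 0.05 (SE; edgeR adjusted p = 6.21e-12). Ccl3 was 3.13-fold higher (1.65 ± 0.06; edgeR adjusted p = 3.52e-10). Ccl9 rose by a log2 change of 1.43 ± 0.14 and Ccl5 by 0.68 ± 0.14 (edgeR adjusted p = 8.72e-06 and 0.0036). These 4 genes lie together on chromosome 11, with start sites of Ccl4 and Ccl5 132 kb apart and those of Ccl3 and Ccl4 13.2 kb apart.

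The CCR4 ligands split. Ccl22 was 1.52-fold higher (log2 change 0.60 ± 0.07; edgeR adjusted p = 2.59e-05), and Ccl17 was 7.93-fold lower (−2.99 ± 0.68; edgeR adjusted p = 0.0069). The ELR CXC group split too. Cxcl1 was higher at a log2 change of 1.18 ± 0.37 (edgeR adjusted p = 0.040), Cxcl3 lower at −1.44 ± 0.19 (9.35e-05) and Cxcl5 lower at −1.57 ± 0.41 (0.015), while Cxcl2 had −0.16 ± 0.45 with no call. The start site of Cxcl1 lies 12.6 kb from that of Cxcl2, 105 kb from that of Cxcl3 and 132 kb from that of Cxcl5. The call of Cxcl1 was lost without replicate 4 (1.11; edgeR adjusted p = 0.079) and in DESeq2 (adjusted p = 0.16).

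**Figure D3:**
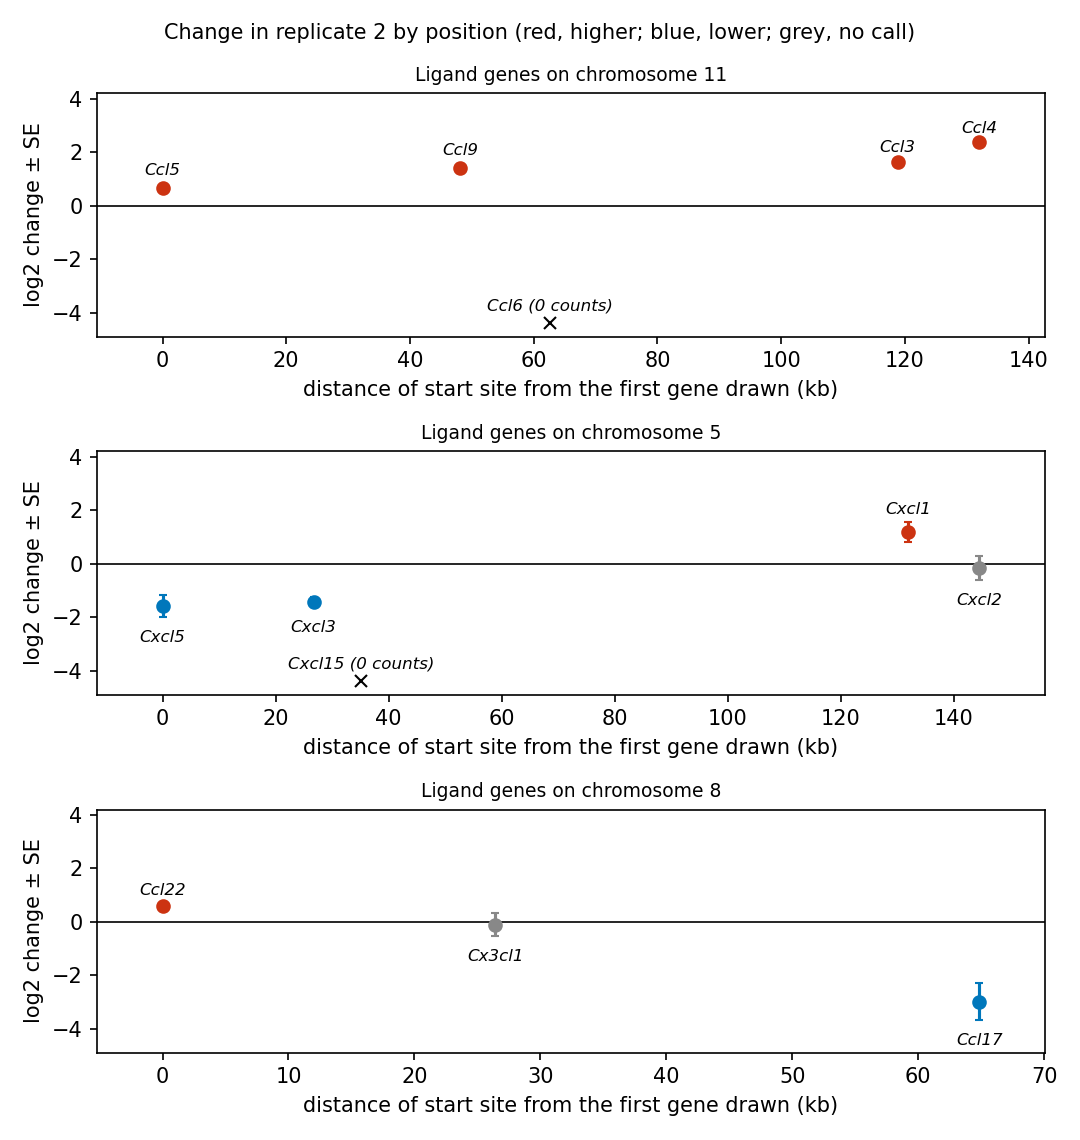
Log2 change in replicate 2 (±1 SE, edgeR) against the distance between start sites in kb for neighbouring ligand genes on chromosomes 11, 5 and 8; crosses mark genes with 0 counts in every library, drawn at the lower edge with no value. Of the genes drawn, the 4 tested on chromosome 11 are higher, on chromosome 5 Cxcl1 is higher and Cxcl3 and Cxcl5 lower, and on chromosome 8 Ccl22 is higher and Ccl17 lower.

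Ccl20, Ccl1 and Cxcl10 fell. Ccl20 was 2.48-fold lower, a log2 change of −1.31 ± 0.19 (edgeR adjusted p = 2.61e-04). Ccl1 was 3.46-fold lower (−1.79 ± 0.35; edgeR adjusted p = 0.0025), and the interferon-induced Cxcl10 was 3.42-fold lower (−1.77 ± 0.34; edgeR adjusted p = 0.0021). Ccl28 had a log2 change of 3.25 ± 0.92 (edgeR adjusted p = 0.024), which rests on 21 counts in replicate 2, and DESeq2 gave it no adjusted p. The other tested genes had no call: Cxcl16 at −0.52 ± 0.27, Ccl25 at −0.02 ± 0.20, Ccl27a at −0.13 ± 0.38, Cx3cl1 at −0.12 ± 0.43, Cxcl13 at −1.39 ± 0.96, and Cxcl9. Cxcl16 passed the threshold when replicate 3 was left out (−0.72; edgeR adjusted p = 0.0091).

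None of the ligand genes was called in replicate 1, 3 or 4 against the others. The same comparisons called 0 of all genes in edgeR, with 180, 272 and 146 genes at an unadjusted p under 0.05 and no ligand gene among them, and 2, 15 and 3 genes in DESeq2, again without a ligand. In these comparisons replicate 2 is among the 3 libraries on the other side and widens their spread. Without replicate 2 they called 101, 102 and 38 genes, none of them a ligand.

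Both the amount and the make-up of the ligand mRNA differed in replicate 2. The summed level of the 37 genes was 1229, 3744, 1242 and 1301 TPM in replicates 1 to 4, with a mean of 1257 ± 38.2 TPM (SD, n = 3) without replicate 2. Ccl4 made up 23.7% of the sum in replicate 2 and 13.9 to 14.5% in the others, Ccl22 3.98% against 7.66 to 9.02%, and Ccl5 1.36% against 2.17 to 2.97%. All 33 other genes together made up 1.29% in replicate 2 and 5.06 to 7.11% in the others. Without Ccl3 and Ccl4 the sum was 248 TPM in replicate 2 and 194 to 235 TPM in the others. The level of Ccl3 was 2.93 times that of Ccl4 in replicate 2 and 4.58 to 5.11 times elsewhere.

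**Figure D4:**
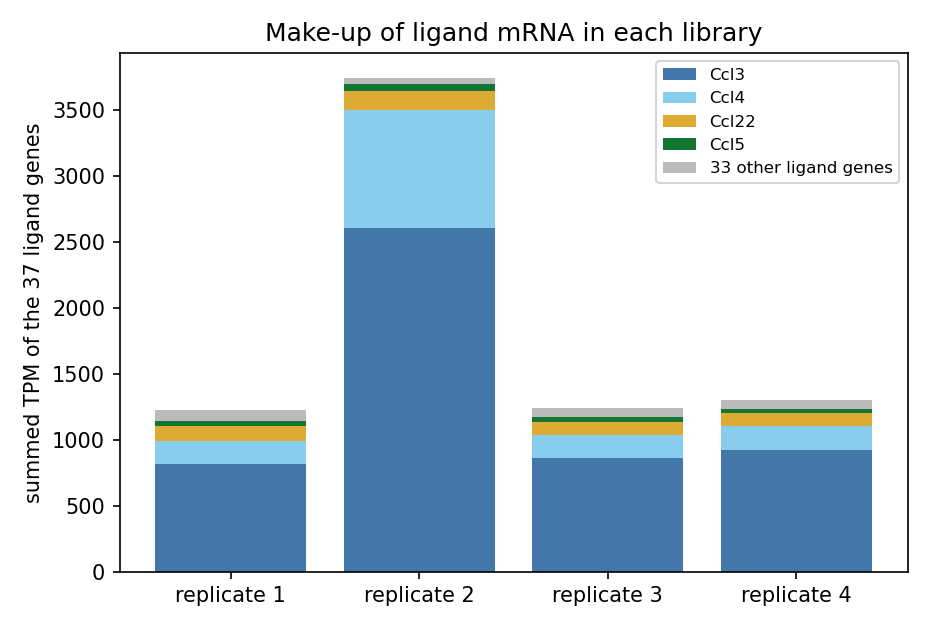
Summed TPM of the 37 ligand genes in each library, as bars starting at 0 and stacked by gene. Replicate 2 reaches 3744 TPM against 1229 to 1301 TPM in the others, with the added height in Ccl3 and Ccl4.

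Of 17 classical receptor genes of these ligands 14 were tested, 9 lay above 1 TPM and 5 below, beside 70.7% of all genes tested above and 16.5% below. Of the 5 below, Cxcr1 (0.575 ± 0.146 TPM, SD, n = 4) lost its call with any single replicate left out, without the count filter and when TPM was rescaled over nuclear protein-coding genes. Ccr7, the receptor for lymph node entry, was highest at 398 ± 155 TPM (320.5 ± 8.26 without replicate 2), followed by Ccr6 at 191 ± 93.5, Ccr4 at 184 ± 34.0, Cxcr3 at 125 ± 11.6 and Ccr8 at 77.1 ± 6.26 TPM (SD, n = 4). Ccr6 had 250.2, 51.5, 234 and 229 TPM in replicates 1 to 4, so it ranked second in replicates 1, 3 and 4, and below Ccr4 (133 TPM), Cxcr3 (109 TPM) and Ccr8 (82.6 TPM) in replicate 2. Without replicate 2 the means were 237 ± 11.3 TPM for Ccr6, 201 ± 2.55 for Ccr4, 130.1 ± 5.68 for Cxcr3 and 75.3 ± 6.24 for Ccr8 (SD, n = 3). For CCR7, CCR6, CCR4, CXCR3 and CCR8 the ligand genes as grouped here were Ccl19 and the Ccl21 copies at 0, Ccl20, Ccl22 with Ccl17, Cxcl10 with Cxcl9, and Ccl1. These levels come from the same bulk libraries, so whether the same cells made receptor and ligand cannot be told. Ccr1, a receptor of CCL3, CCL5 and CCL9, was low at 0.435 ± 0.194 TPM (SD, n = 4), and its level below 1 TPM was no longer called without replicate 4. Without replicate 2 it stood at 0.518 ± 0.123 TPM (SD, n = 3). Cxcr2, the receptor of the ELR CXC group, had 0.0471 ± 0.0412 TPM, Cxcr6 7.77 ± 1.11 TPM, Cx3cr1 0.0717 ± 0.0246 TPM and Ccr9 0.0109 ± 0.0107 TPM (SD, n = 4), and Ccr10 had 0 counts. Without replicate 2 Cxcr6 stood at 8.32 ± 0.0504 TPM. Over all libraries Cxcr2, Cx3cr1 and Ccr9 reached at most 0.0937, 0.0991 and 0.0255 TPM, the last of these in replicate 2. Ccr3, which also binds CCL5, had 2.44, 0.480, 2.18 and 2.02 TPM, and its level above 1 TPM was no longer called without replicate 1, 3 or 4, with a filter of 100 counts (edgeR adjusted p = 0.0503) or without length correction (0.057).

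**Figure D5:**
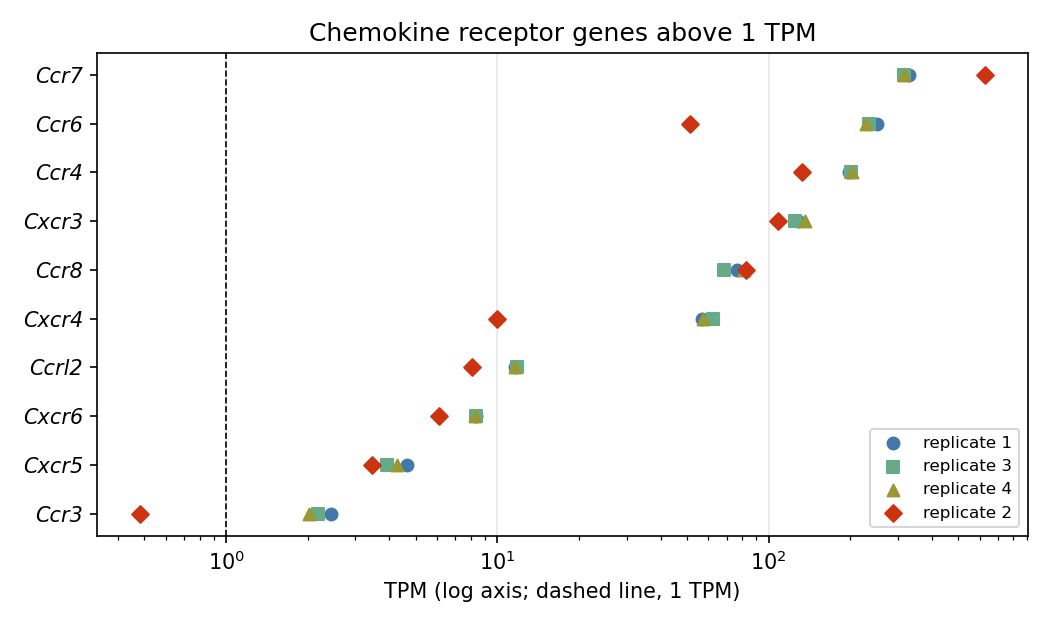
Level in TPM, on a log axis, of the classical and atypical receptor genes above 1 TPM in each library, with 1 symbol per replicate. Replicate 2 lies well to the right of the others for Ccr7, close to them for Ccr8, and left of the others for Ccr6, Ccr4, Cxcr3, Cxcr4, Ccrl2, Cxcr6, Cxcr5 and Ccr3.

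In replicate 2, 1 of the 14 tested receptor genes was higher and 5 were lower, with a median log2 change of −0.36, beside 10.9% of all genes higher, 10.2% lower and a median of −0.01. Ccr7 was higher at 1.03 ± 0.05. Cxcr4, the receptor of CXCL12, stood at 57.1, 9.95, 62.2 and 57.4 TPM in replicates 1 to 4 and was lower at −2.50 ± 0.13. Ccr6 was lower at −2.14 ± 0.07, so in replicate 2 this receptor and its ligand gene Ccl20 were both lower. Ccr4 was lower at −0.53 ± 0.05, as was its ligand gene Ccl17 but not Ccl22. Ccr3 fell by 2.13 ± 0.37 on the log2 scale, while Ccl5 rose. Cxcr3 was lower at −0.20 ± 0.07, a call lost in DESeq2 (adjusted p = 0.086) and without replicate 4. Ccr8 had 0.19 ± 0.11 with no call, whereas Ccl1 fell.

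Of the atypical receptors, which bind chemokines without G protein signalling, only Ccrl2 had enough counts to be tested. It stood at 11.6, 8.03, 11.9 and 11.6 TPM in replicates 1 to 4 and was lower in replicate 2 at −0.48 ± 0.13 (edgeR adjusted p = 0.021), but not in DESeq2 (adjusted p = 0.10). Ackr1 and Ackr3 had 0 counts. The 19 listed genes of signalling below chemokine receptors were all above 1 TPM, 7 were higher and 6 lower in replicate 2, and their median log2 change was 0.06. Over all genes tested 70.7% were above 1 TPM, and 26.4% of genes with a mean of at least 1 TPM were called in replicate 2. The higher genes were those of the G protein subunit Gnai2, the receptor kinases Grk2 and Grk6, the GTPase Rac2, Rgs10, Plcb2 and the PI3K-gamma adaptor Pik3r5, at 0.18 to 0.82. The lower genes were Arrb1 (beta-arrestin 1) at −1.39 ± 0.05, Rgs16 at −0.79 ± 0.07, Rgs2 at −0.67 ± 0.08, Gng2 at −0.59 ± 0.07, Pik3cg at −0.41 ± 0.05 and Rgs1 at −0.29 ± 0.05.

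Several ligands are also made by myeloid and other cells, so markers of those cells were set beside the result. Of 15 myeloid and dendritic markers 5 were at 0 in every library (Lyz2, S100a8, S100a9, Csf3r and Tyrobp), 4 were above 1 TPM, and the 3 highest by mean were Cd68 at 9.46, Adgre1 at 7.96 and Cd14 at 3.86 TPM. Their summed level was 36.4 TPM in replicate 2 and 22.5 to 25.0 TPM in the others. Flt3, the one marker of this list that was higher in replicate 2, stood at 11.5 TPM there and at 1.01 ± 0.247 TPM in the others, and Adgre1 was lower. The summed level of 6 B cell markers (led by Cd79b, Cd79a and Pax5) was 2.23 TPM in replicate 2 and 1.87 to 2.11 TPM in the others, with none above 1 TPM by the test. That of 7 NK and CD8 T cell markers (led by Cd8b1, Prf1 and Gzma, with Ncr1 at 0) was 37.3 TPM against 51.2 to 59.5. Most of this sum was Cd8b1, at 48.0, 31.6, 41.6 and 46.9 TPM in replicates 1 to 4. Cd8a had only 0, 1, 3 and 2 counts, and Klrb1c had 1 count in all. The summed level of 10 stromal, endothelial and epithelial markers (led by Pecam1, Pdgfrb and Epcam, with Cdh5, Col3a1 and Krt8 at 0) was 24.0 TPM against 21.4 to 24.3. The part of other cells, or of the lower Th17 identity genes, in the ligand changes of replicate 2 was not tested.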

How the data were processed

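RNA sequencing libraries of cultured mouse Th17 cells, 4 in 1 group, were analysed from 1 gene table each. The assay is labelled total RNA-seq, while the title of the linked library protocol names poly(A)+ RNA. The values are raw counts that the authors made with featureCounts 1.4.6-p4 on paired reads with strand option 2 and both ends mapped, against GENCODE release 13 for mouse (mm10), per the file headers. The deposited Length column is the summed exon length in bases. The aligner is not given in the sources used here. Symbols came from GENCODE vM21 (50376 of 50600 identifiers matched, 224 did not).

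TPM was computed from counts and Length over all genes. Genes with at least 10 summed counts were tested with edgeR 4.0.16 (quasi-likelihood, R 4.3.3): the level against 1 TPM, and each replicate against the other 3 with TMM normalization. P-values were Benjamini-Hochberg adjusted over all genes tested, with a threshold of 0.05. DESeq2 1.42.0, size factors, other filters, TPM without length correction or over nuclear protein-coding genes, and leaving out each replicate were alternatives; a robust prior and the stricter NF-kappa-B motif were added after seeing the data. The fits were also run on simulated counts in which all libraries had the same spread. That run cannot check the assumption that a lone library varies like the others. A count of 3, the floor for a gene at 0, stood for 0.0795 to 0.0906 CPM, and covers counting error only. No 2 libraries were identical. Exons of 5 ligand genes overlap a gene on the opposite strand and none one on the same strand.

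The ligand genes and all lists were chosen with earlier results of these data known. Ligand genes with a mean of at least 1 TPM or a call are given for every library. Of receptor and signalling genes, those with a mean of at least 5 TPM and a call, the 5 highest receptors and the receptors of the ligands are named. Of each marker list the 3 highest and those at 0 are named, with Flt3, Cd8a and Klrb1c in addition. A further receptor gene is not reported here.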

Additional observations from a re-analysis of the deposited data

Results flagged for a closer look

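Values were looked at again where 1 of the 4 libraries lay far from the rest, by Dixon's gap test at 95%. Chance alone does this in about 1 in 20 groups. It happened for 4 of 17 ligand genes, for 14 of 27 receptor and signalling genes and for the ligand sum, and replicate 2 was the library in all 19. Over all genes, replicate 2 lay this far from the others for 8.86% of those with a mean of at least 1 TPM, the minimum used for the ligands, and for 9.98% of those with at least 5 TPM, the minimum used for the receptor and signalling genes.

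Replicate 2 was far above the others for Ccl3 (2607 TPM), Ccl4 (889 TPM), Ccl9 (19.0 TPM), Cxcl1 (2.98 TPM) and the summed level of all ligands (3744 TPM). It was far above them for the receptor gene Ccr7 (629.5 TPM) and for the signalling genes Rac2 (837 TPM), Gnai2 (424 TPM), Grk2 (362 TPM), Grk6 (222 TPM) and Rgs10 (69.4 TPM). It was far below them for the receptor genes Ccr4 (133 TPM), Ccr6 (51.5 TPM), Cxcr4 (9.95 TPM), Ccrl2 (8.03 TPM) and Cxcr6 (6.11 TPM). It was also far below them for the signalling genes Rgs2 (29.2 TPM), Pik3cg (27.9 TPM) and Arrb1 (12.5 TPM).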

How the results depend on the processing

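The count of ligand genes above 1 TPM was 12 to 16 over the alternatives, and the count below 1 TPM was 4 with no filter, 0 with a filter of 100 counts and 0 to 1 with a replicate left out. In replicate 2, 5 to 7 ligand genes were higher and 6 to 7 lower, and 2864 to 4331 of all genes were called (3907 with a robust prior). For replicates 1, 3 and 4 no alternative called a ligand gene. DESeq2 called 2, 15 and 3 of all genes, and leaving out a replicate gave 0 to 101, 0 to 102 and 0 to 38. Without length correction the log2 levels of Cxcl1 and Cxcl2 against 1 TPM turned to −0.042 and −0.32, and the calls of Ccl17 (0.00) and Ccl27a (0.37) were lost. With a replicate left out, the level of Cx3cl1 ranged from −0.18 (without replicate 4) to 0.19, and log2 changes in replicate 2 from −0.32 to 0.23 (without replicate 4) for Cx3cl1, from −0.12 to 0.11 (without replicate 3) for Ccl25, from −0.28 to 0.068 (without replicate 3) for Ccl27a, from −0.020 (without replicate 1) to 0.046 for Dock2 and from −0.039 to 0.014 (without replicate 1) for Elmo1. Among the turned values only the levels of Cxcl1 and Cxcl2 had been called before. Without length correction every gene was given the median length of the genes tested, which by itself lowers the level of a shorter gene. The cause of the other turns was not tested. Of the recomputed changes of single genes in replicate 2, 402 kept their direction and their side of the threshold, 5 turned, 5 lost and 1 gained a call. No paired analysis was possible because there is only 1 group. Genes with few counts, such as Ccl28 and Cxcl9, are limited by depth.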
